A study of Mus musculus with 8 samples.

Results

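The Notch receptor transcripts Notch1, Notch2, Notch3 and Notch4, the transcripts of the ligands Jag1 and Jag2, and those of the target genes Hes1, Hey1, Hey2 and Heyl were measured in the hearts of tumor-bearing and PBS-injected mice. The 10 genes were chosen by name from the 43346 genes of the count table, and all 10 were counted in every mouse and tested. Ventricular RNA came from 8 male C57BL/6 mice, of which 4 were injected with 1000000 LLC1 cells, a Lewis lung carcinoma line, and 4 with PBS vehicle. Injections were subcutaneous at 7 weeks of age and hearts were taken on day 14, so both groups were of the same strain, sex and age. Each mouse is named by its injection and the replicate code of its label, such as PBS 1-1. The tissue is whole ventricle, in which cell types were not separated.

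Notch receptors are cut by furin on their way to the cell surface. When a Jagged or Delta-like ligand on a neighbouring cell binds, ADAM10 and then gamma-secretase release the intracellular part, which joins RBPJ and Mastermind proteins on DNA and switches on HES and HEY genes. These encode basic helix-loop-helix repressors. In the heart and its vessels NOTCH1 and NOTCH4 are known from endothelium, NOTCH3 from smooth muscle cells and pericytes, HEY2 from the ventricular myocardium of the embryo, and HEYL from vascular cells.

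Heyl was the only member that passed the test, and it was lower in tumor-bearing mice, at 0.739-fold of the PBS level (95% interval 0.639 to 0.856). The 4 receptors, both Jagged ligands, Hes1, Hey1 and Hey2 did not pass, with 95% intervals of the fold change that lay between 0.699 and 1.23. With the quasi-likelihood test of edgeR, 1 of 10 members passed at an FDR of 0.05, where 8.73% of the 16111 genes tested did, so that the share of members called was near that of all genes. By direction, 1 member was called lower against 4.61% of all genes and 0 higher against 4.12%. An unadjusted p under 0.05 was reached by the same 1 member in edgeR and by 25.5% of all genes. The groups did not overlap for 1 of 10 members, against 17.2% of all genes. The point estimate was below 0 for 9 of the 10 and for 52.1% of all genes, with a median log2 fold change of -0.11 for the members and -0.01 for all genes. Without PBS 2-5 it was below 0 for 6 of the 10, with a median of -0.04. FDR is the Benjamini-Hochberg adjusted p over all genes tested. In RNA of whole ventricle, fewer cells of a type and less RNA per cell cannot be told apart.

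The libraries held 12480706 to 19747596 counts on genes. PBS 1-1 stood apart from the other PBS-injected mice on the second principal component of log2 CPM, which held 25.2% of the variance. Levels below are counts per 1000000 counts after TMM scaling (CPM), which compare mice for the same gene, and are given in the order 1-1, 1-3, 2-1, 2-5 for PBS and 1-2, 1-3, 1-5, 2-2 for LLC1. Gene positions are those of the table, on build mm10. The label "ventricle" was checked with markers. Summed over 10 cardiomyocyte markers, the level was between 99799 and 116668 CPM in each mouse, and summed over Myl7, Myl4, Sln and Nppa, which are high in atria, it was between 113 and 339 CPM. The latter sum was mostly Nppa, and without Nppa it was between 2.02 and 4.41 CPM.

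RBPJ binds DNA at the core TGGGAA, and the core was searched on both strands (TGGGAA or TTCCCA) in the 300-base RefSeq promoter windows of build GRCm38.p6, 250 bases before to 50 bases after each start. Windows were matched for 7 of the 10 members, and Hes1, Hey1 and Heyl had none. Of the 7, Hey2 held the core, with 2 matches, and the other 6 held no match in these windows. For scale, 25.6% of all 32851 windows held at least 1 match and 3.79% held 2 or more. The window of Hey2 (chr10:30842734-30843033, minus strand) is shown because it is the member window with the core, and that of Nrarp (chr2:25180508-25180807, plus strand), a further target described below, for comparison. Both are 5′ to 3′ with the core in capitals.
Hey2: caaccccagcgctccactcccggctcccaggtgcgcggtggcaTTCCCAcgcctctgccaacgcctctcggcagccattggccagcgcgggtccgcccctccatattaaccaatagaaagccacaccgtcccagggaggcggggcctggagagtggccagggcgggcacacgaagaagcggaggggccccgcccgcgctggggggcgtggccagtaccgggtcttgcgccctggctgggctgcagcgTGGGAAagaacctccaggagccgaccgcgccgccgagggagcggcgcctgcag
Nrarp: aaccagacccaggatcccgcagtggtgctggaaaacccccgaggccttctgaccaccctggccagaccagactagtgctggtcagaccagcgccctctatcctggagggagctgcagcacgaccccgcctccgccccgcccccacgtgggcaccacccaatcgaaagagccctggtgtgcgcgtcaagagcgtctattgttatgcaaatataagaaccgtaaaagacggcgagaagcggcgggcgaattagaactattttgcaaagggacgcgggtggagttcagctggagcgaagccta
In Hey2 the matches begin at base 44 (TTCCCA) and base 248 (TGGGAA) of the window, and the Nrarp window holds no match. Both windows were chosen after the values were seen, and a match is a string of letters, not a measured binding site.

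Notch1 (ENSMUSG00000026923, chromosome 2, 26457903 to 26516663) had 73.7, 77.1, 65.4 and 107 CPM in the PBS-injected mice and 67.7, 87.5, 66.6 and 82.5 CPM in the tumor-bearing mice. The groups overlapped, and the PBS group was spread by PBS 2-5, which was the highest of all 8 mice. The log2 fold change was -0.09 (standard error 0.14, edgeR FDR = 0.734). Without PBS 2-5 it was 0.07 (edgeR FDR = 0.680), so its sign rested on that mouse. Notch4 (ENSMUSG00000015468, chromosome 17, 34564268 to 34588503), the receptor best known from endothelium, showed the same high mouse. Its levels were 52.0, 71.2, 55.7 and 90.3 CPM in PBS-injected mice and 54.8, 67.4, 52.5 and 75.8 CPM in tumor-bearing mice. The groups lay over each other, with a log2 fold change of -0.11 (standard error 0.17, edgeR FDR = 0.732).

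Notch3 (ENSMUSG00000038146, chromosome 17, 32120820 to 32166880), the receptor of mural cells, had 55.1, 68.8, 74.3 and 88.8 CPM in PBS-injected mice. In tumor-bearing mice it had 61.0, 72.4, 55.1 and 78.3 CPM. The highest and the lowest mouse were both PBS-injected, PBS 2-5 and PBS 1-1, and the log2 fold change was -0.11 (standard error 0.14, edgeR FDR = 0.664). Notch2 (ENSMUSG00000027878, chromosome 3, 98013538 to 98150367), a receptor of many cell types, varied least among the receptors. It had 36.5, 40.2, 40.8 and 42.9 CPM in PBS-injected mice and 33.9, 38.5, 41.1 and 41.0 CPM in tumor-bearing mice. The log2 fold change was -0.05 (standard error 0.08, edgeR FDR = 0.716), and its 95% interval, 0.854- to 1.09-fold, was the narrowest of the 10 members on the log2 scale. Some exons overlap genes on the other strand, 7.50% of the exon bases of Notch1 with 0610009E02Rik and 6.03% of those of Notch3 with Gm17276, and without knowledge of the strand setting such reads cannot be told apart. On the same strand 5.02% of the exon bases of Notch2 overlap Gm42820, which is not among the genes counted.

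The make-up of the receptor pool was compared within each mouse from levels per gene length (RPKM). Notch3 took 33.4 ± 2.82% (SD, n = 4) of the summed receptor RPKM in PBS-injected mice and 33.0 ± 1.24% (SD, n = 4) in tumor-bearing mice. Notch4 took 30.9 ± 2.60% and 30.9 ± 1.26%, Notch1 21.2 ± 2.16% and 21.3 ± 1.03%, and Notch2 14.5 ± 1.76% and 14.8 ± 2.05% (SD, n = 4 each). The differences of the group means were between -0.368 and 0.316 percentage points, less than the spread between mice (exact permutation tests, 2-sided, adjusted p = 0.971 each). With 1 mouse left out the differences ranged from -1.09 to 1.01 points for Notch3, -1.02 to 0.679 for Notch4, -0.734 to 0.910 for Notch1 and -0.687 to 0.759 for Notch2, so their signs rested on single mice. The order Notch3, Notch4, Notch1, Notch2 of the group means was the same in both groups.

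**Figure D1:**
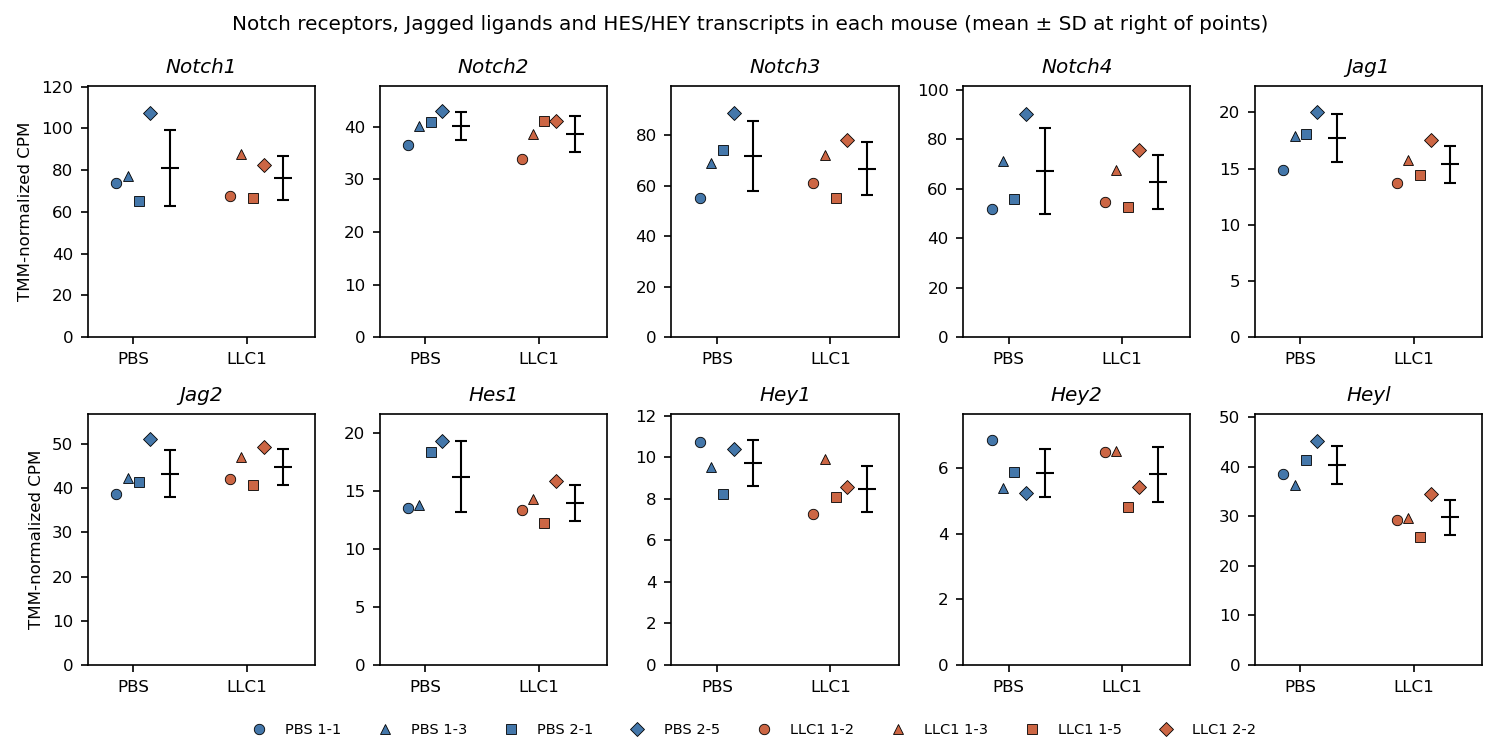
TMM-normalized CPM of each of the 10 genes (vertical axis, linear, from 0) in each of 4 PBS and 4 LLC1 mice, 1 symbol per mouse, with the mean ± SD at the right of the points. The groups overlap in every panel but Heyl, where the LLC1 mice sit between 25.9 and 34.6 CPM and the PBS mice between 36.3 and 45.2 CPM.

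Jag1 (ENSMUSG00000027276, chromosome 2, 137081456 to 137116644) encodes the Jagged ligand that endothelial cells present to mural cells. It had 14.8, 17.9, 18.1 and 20.0 CPM in PBS-injected mice and 13.8, 15.8, 14.4 and 17.5 CPM in tumor-bearing mice. Only PBS 1-1 lay within the LLC1 range, and the log2 fold change was -0.21 (standard error 0.11, edgeR FDR = 0.251). Without PBS 1-1 it was -0.28 (edgeR FDR = 0.0841). Jag2 (ENSMUSG00000002799, chromosome 12, 112908590 to 112929495), the other Jagged ligand, had 38.6, 42.2, 41.4 and 51.0 CPM in PBS-injected mice and 42.0, 47.1, 40.6 and 49.3 CPM in tumor-bearing mice. The groups overlapped, with a log2 fold change of 0.04 (standard error 0.09, edgeR FDR = 0.807), and scaling to total counts turned its sign, to -0.01.

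Set against each other within a mouse, the 2 ligands separated the groups. Jag1 made up 21.1, 22.8, 23.4 and 21.4% of the summed Jagged RPKM in the PBS-injected mice. In the tumor-bearing mice it made up 18.6, 18.9, 19.8 and 19.8%. All 4 tumor-bearing mice lay below all 4 PBS-injected mice, with means of 19.3 ± 0.647% and 22.2 ± 1.08% (SD, n = 4), a difference of -2.89 percentage points (exact permutation test, 2-sided, p = 0.0286, the smallest that 4 mice against 4 allow). After adjustment over the 9 shares tested in the receptor, Jagged and HEY families the p was 0.129 (exact permutation tests), which did not pass. With the smallest p so limited, even a separated share could hardly pass this adjustment. The Jag2 share is the complement of the Jag1 share. Leaving out each mouse in turn left a difference between -3.26 and -2.50 percentage points. The table gives Jag2 a length of 4054 bases where GENCODE M21 joins 6965 bases of exon. With the latter the Jag1 shares were 29.1 ± 0.858% and 32.9 ± 1.38% (SD, n = 4), again without overlap.

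Hes1 (ENSMUSG00000022528, chromosome 16, 30064384 to 30067796), the HES repressor that Notch induces in many tissues, had 13.5, 13.7, 18.4 and 19.3 CPM in PBS-injected mice. In tumor-bearing mice it had 13.3, 14.3, 12.2 and 15.8 CPM. PBS 2-1 and PBS 2-5 lay above all tumor-bearing mice and PBS 1-1 and PBS 1-3 within their range, and the log2 fold change was -0.23 (standard error 0.13, edgeR FDR = 0.303). Hey1 (ENSMUSG00000040289, chromosome 3, 8663359 to 8667256), a target in endothelial cells, had 10.7, 9.53, 8.24 and 10.4 CPM in PBS-injected mice and 7.28, 9.94, 8.10 and 8.55 CPM in tumor-bearing mice. Its groups overlapped, and the log2 fold change was -0.20 (standard error 0.12, edgeR FDR = 0.350).

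Hey2 (ENSMUSG00000019789, chromosome 10, 30832359 to 30842801), known from the ventricular myocardium, was the member of lowest RPKM, with 77 to 108 counts in a mouse. It had 6.86, 5.40, 5.89 and 5.25 CPM in PBS-injected mice and 6.48, 6.52, 4.81 and 5.43 CPM in tumor-bearing mice. The groups lay over each other, with a log2 fold change of -0.01 (standard error 0.14, edgeR FDR = 0.980). The 95% interval, 0.804- to 1.23-fold, leaves room for a modest change in either direction.

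Heyl (ENSMUSG00000032744, chromosome 4, 123233556 to 123249875) encodes the third HEY repressor and was the HEY transcript of highest RPKM. It had 38.5, 36.3, 41.4 and 45.2 CPM in PBS-injected mice and 29.2, 29.6, 25.9 and 34.6 CPM in tumor-bearing mice, from 442 to 765 counts in a mouse. Every tumor-bearing mouse lay below every PBS-injected mouse. The means were 29.8 ± 3.56 and 40.3 ± 3.82 CPM (SD, n = 4), and the log2 fold change was -0.44 (standard error 0.10, FDR = 0.0185 in edgeR's quasi-likelihood test; exact permutation test, 2-sided, p = 0.0286). Without PBS 1-1 it was -0.46 (edgeR FDR = 0.0112). The call was lost when LLC1 1-2, LLC1 1-3 or LLC1 1-5 was left out, with edgeR FDR values of 0.0547, 0.0578 and 0.0573, while the log2 fold change stayed between -0.43 and -0.37 in those fits.

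**Figure D2:**
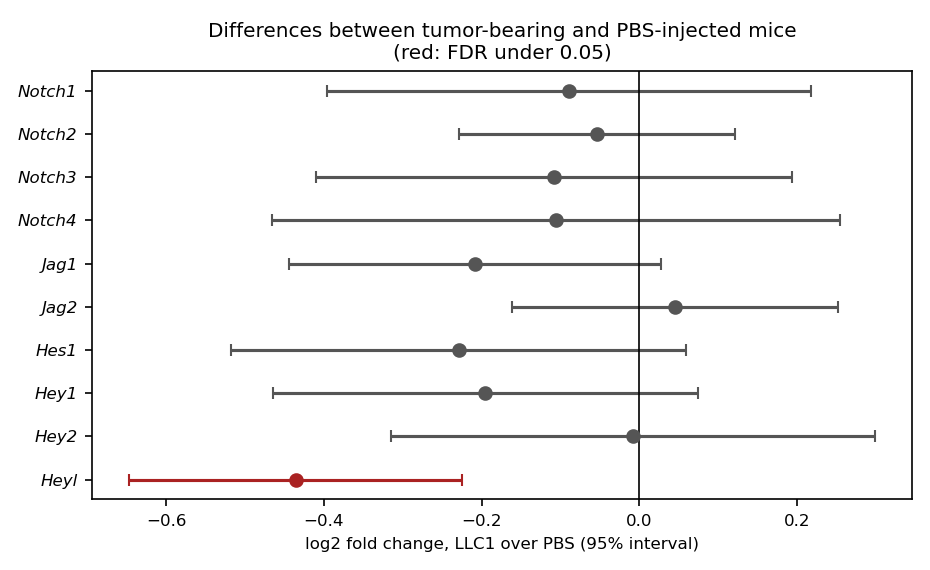
Log2 fold change of tumor-bearing over PBS-injected mice (horizontal axis) for each of the 10 genes, with 95% intervals from edgeR's quasi-likelihood fit, red where the FDR is under 0.05. The interval of Heyl, centred at -0.44, is the only one that does not reach 0.

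Within the HEY factors, Heyl took 55.8, 58.5, 62.6 and 62.8% of the summed RPKM of Hey1, Hey2 and Heyl in PBS-injected mice. In tumor-bearing mice it took 54.5, 50.8, 53.7 and 58.7%. The groups overlapped, with means of 59.9 ± 3.39% and 54.5 ± 3.26% (SD, n = 4; exact permutation test, 2-sided, p = 0.0857, adjusted p = 0.193). For Hey2 the means were 17.5 ± 2.17% and 21.3 ± 2.54% (SD, n = 4), and the exact permutation test gave p = 0.0571 (adjusted p = 0.171). With 4 mice against 4 the exact permutation test cannot give a p under 0.0286. Even the Jag1 share, without overlap, had an adjusted p of 0.129 in these exact permutation tests. The adjusted tests could therefore hardly pass and do not decide whether Heyl differed in response from the other HEY transcripts.

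In PBS-injected mice the order of the mean RPKM was Jag2 (10.7 ± 1.32), Notch3 (8.92 ± 1.73), Notch4 (8.35 ± 2.17), Hes1 (7.96 ± 1.49), Heyl (7.89 ± 0.747), Notch1 (5.68 ± 1.28), Notch2 (3.82 ± 0.255), Jag1 (3.04 ± 0.367), Hey1 (2.98 ± 0.339) and Hey2 (2.29 ± 0.285) (SD, n = 4 each). Ranges of neighbours in this order overlapped among PBS-injected mice, except for Notch1 over Notch2 and Notch2 over Jag1, which held in 8 of 8 mice. Heyl had 5.84 ± 0.696 RPKM (SD, n = 4) in tumor-bearing mice. With the exon lengths of GENCODE M21, which are longer for Jag2 and Hey2, Jag2 had 6.22 ± 0.770 RPKM (SD, n = 4) in PBS-injected mice and stood after Heyl, so its first place rests on the length used.

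**Figure D3:**
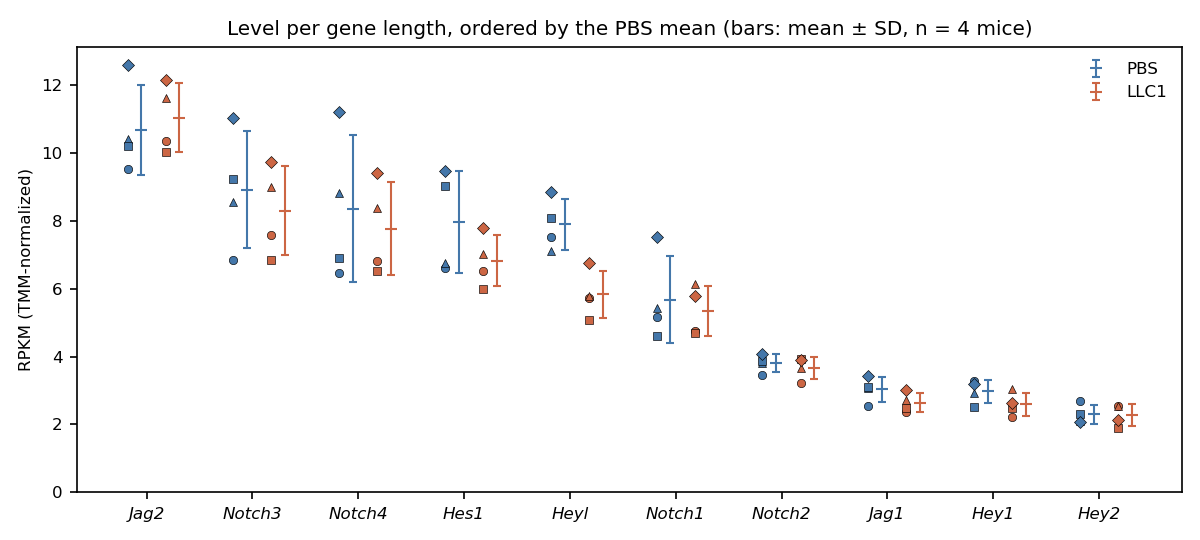
RPKM (vertical axis, linear, from 0) of the 10 genes in each PBS (blue) and LLC1 (orange) mouse, ordered by the PBS mean, with bars for the mean ± SD of 4 mice. Jag2 has the highest PBS mean, 10.7, and Hey2 the lowest, 2.29.

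The members tended to be high or low in the same mice. PBS 2-5 was the highest PBS-injected mouse for 8 of the 10 members, all but Hey1 and Hey2, and PBS 1-1 the lowest for 6. Among tumor-bearing mice LLC1 2-2 was the highest for 6 members and LLC1 1-5 the lowest for 7. Without PBS 1-1 the log2 fold change was -0.13 for Notch1, -0.094 for Notch2, -0.21 for Notch3, -0.21 for Notch4, -0.0039 for Jag2, -0.30 for Hes1, -0.15 for Hey1 and 0.068 for Hey2. Without PBS 2-5 it was -0.024 for Notch2, 0.0059 for Notch3, 0.067 for Notch4, 0.13 for Jag2 and -0.14 for Hes1. None of these passed in edgeR, but the size, and for Notch1, Notch3, Notch4, Jag2 and Hey2 the sign, depended on 1 of these mice. The share of each cell type in these tissue pieces was not measured.

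The genes with a pattern over the 8 mice most like that of Heyl, by the root mean square difference of log2 CPM centred on each gene's mean, were Elk3 (0.06), an ETS family repressor, Gng12 (0.07), a G protein subunit, and Itga1 (0.07), the alpha 1 integrin chain. The median over the 11368 genes compared was 0.29. Since they were chosen for their likeness to Heyl over the same mice, their lower level in tumor-bearing mice follows from the choice. Their log2 fold changes were -0.40, -0.40 and -0.44.

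Of 63 further genes of the Notch pathway, listed by role, 55 were tested. Dll3, Dlk1, Dlk2, Dner, Hes2, Hes3, Hes5 and Hes7 were below the filter on low counts, with at most 9 counts in any mouse. Of the 55, 4 passed at an FDR of 0.05 (7.27%), 2 lower and 2 higher, against 8.73% of all genes. The median log2 fold change of the 55 was -0.07.

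Nrarp (ENSMUSG00000078202, chromosome 2, 25180758 to 25183339), which encodes a Notch-induced ankyrin repeat protein that restrains Notch signaling, was lower in tumor-bearing mice. It had 11.0, 8.97, 8.24 and 10.5 CPM in PBS-injected mice and 4.50, 6.39, 6.62 and 6.74 CPM in tumor-bearing mice. The groups did not overlap, and LLC1 1-2 was the lowest mouse. The log2 fold change was -0.66 (standard error 0.15, edgeR FDR = 0.0180), and the FDR was under 0.05 in all 8 fits that left out a mouse. Of the exon bases of Nrarp, 79.4% overlap Gm38287 on the other strand, which is not among the genes counted, so antisense reads could be part of the Nrarp level. Its promoter window is the second printed above.

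Of 10 protease genes tested 2 were called and 3 had an unadjusted edgeR p under 0.05, against 8.73% and 25.5% of all genes. Both proteases called act on the receptor itself, in different steps and directions. Adam10 (ENSMUSG00000054693, chromosome 9, 70678997 to 70780229), which makes the ligand-dependent cut, had 53.0, 57.2, 51.8 and 59.8 CPM in PBS-injected mice and 38.6, 42.5, 41.2 and 41.7 CPM in tumor-bearing mice. All tumor-bearing mice were lower, with a log2 fold change of -0.44 (standard error 0.07, edgeR FDR = 0.00395). Furin (ENSMUSG00000030530, chromosome 7, 80388585 to 80405436), which cuts the receptor precursor, had 91.6, 96.5, 100.2 and 110 CPM in PBS-injected mice and 115, 133, 134 and 139 CPM in tumor-bearing mice. All tumor-bearing mice were higher, with a log2 fold change of 0.39 (standard error 0.08, edgeR FDR = 0.0120). The call of Furin was lost with scaling to total counts (edgeR FDR = 0.0644) and without PBS 1-3 (edgeR FDR = 0.0518). Adam17, also on the protease list, was lower without overlap but did not pass, with a log2 fold change of -0.23 (standard error 0.07, edgeR FDR = 0.0527). With all mice it was called lower by DESeq2, the 10-count filter, the likelihood ratio test, robust empirical Bayes and the replicate code covariate, and not in the other alternatives.

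Of 12 corepressor genes 1 was called, and 3 had an unadjusted edgeR p under 0.05, against 25.5% of all genes. The gene called was Ctbp1 (ENSMUSG00000037373, chromosome 5, 33247724 to 33275004), which binds repressor complexes at RBPJ sites. It had 124, 119, 132 and 128 CPM in PBS-injected mice and 152, 147, 141 and 146 CPM in tumor-bearing mice, without overlap. The log2 fold change was 0.22 (standard error 0.06, edgeR FDR = 0.0385), and this call was lost in 6 of 8 fits that left out a mouse, those without PBS 1-3, PBS 2-1 or any of the 4 tumor-bearing mice, and with scaling to total counts (edgeR FDR = 0.182). The corepressor with the highest CPM, which is not corrected for gene length, was Ncor1, and it had a log2 fold change of -0.06 (edgeR FDR = 0.572).

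In the nuclear complex 0 of 8 genes passed and 0 of the 8 had an unadjusted p under 0.05 in the edgeR test. Over all genes these shares were 8.73% and 25.5%. Rbpj, the DNA-binding partner, had a log2 fold change of -0.07 (edgeR FDR = 0.590), and Kat2b, the gene with the highest CPM there, -0.03 (edgeR FDR = 0.869). Of the 2 Delta-like ligands tested, Dll4, the endothelial tip cell ligand, had 34.9, 37.5, 36.9 and 44.8 CPM in PBS-injected mice and 31.6, 31.3, 23.4 and 34.8 CPM in tumor-bearing mice. Its groups did not overlap, but the log2 fold change of -0.35 did not pass (standard error 0.12, edgeR FDR = 0.0843). None of 5 glycosylation genes passed (1 with an unadjusted edgeR p under 0.05, against 25.5% of all genes). The highest CPM among them was that of Pofut1, with a log2 fold change of -0.16 (edgeR FDR = 0.237). None of 13 endocytosis and turnover genes passed (6 with an unadjusted edgeR p under 0.05, against the same 25.5%). The highest CPM among them was that of Fbxw7, with a log2 fold change of -0.15 (edgeR FDR = 0.471). Among further targets and relatives Nrarp was the gene called of 5 tested, and 3 of the 5 had an unadjusted edgeR p under 0.05. Bhlhe40 had the highest CPM there and a log2 fold change of -0.09 (edgeR FDR = 0.712). Without PBS 1-1 the lower pathway genes with an FDR under 0.05 numbered 6, with Dll4, Poglut1, Adam17 and Helt added, and the higher ones stayed at 2. The number of all genes called lower also varied between fits that left out a mouse, from 330 to 1041, against 743 with all mice.

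**Figure D4:**
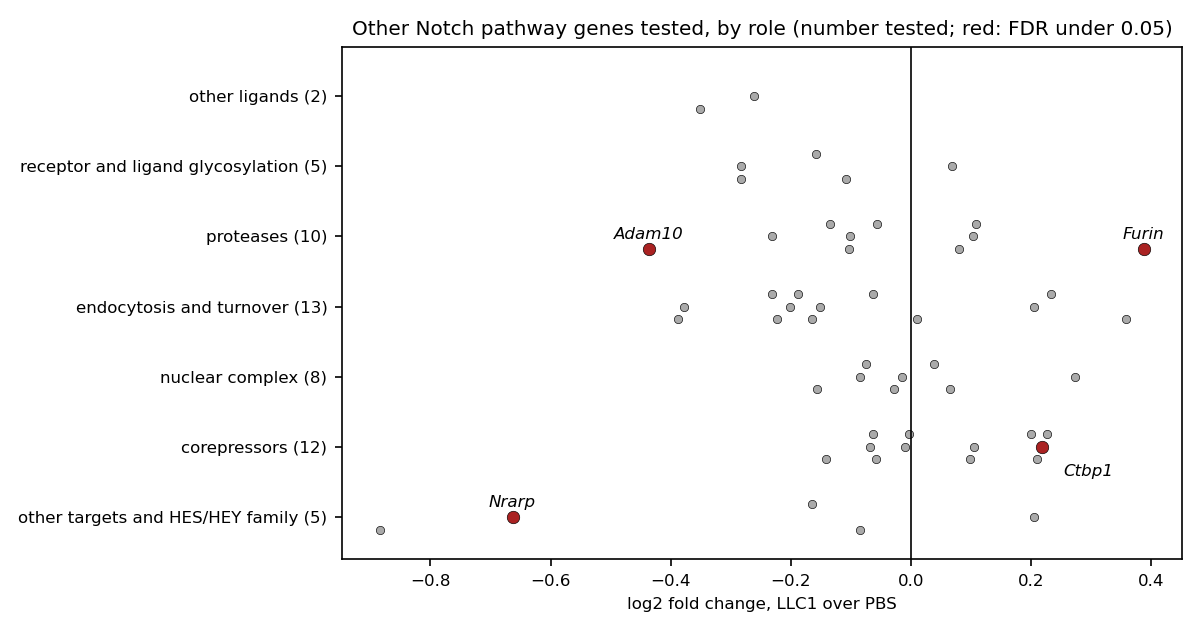
Log2 fold change of tumor-bearing over PBS-injected mice (horizontal axis) for the 55 tested genes of the Notch pathway outside the 10 members, grouped by role (vertical axis, number tested in brackets), red and named where the FDR is under 0.05. The 4 called genes, Nrarp, Adam10, Furin and Ctbp1, fall in 3 roles and on both sides of 0.

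The levels of vascular cell markers are given beside those of the members. Summed over 10 pan-endothelial markers the level was 1324 to 1687 CPM in PBS-injected mice and 1229 to 1415 CPM in tumor-bearing mice. Of these 10, Kdr and Emcn were lower and Flt1 higher in edgeR's test, with log2 fold changes of -0.61, -0.31 and 0.35. Without Kdr the sums had means of 1226 CPM in PBS-injected and 1121 CPM in tumor-bearing mice, against 1510 and 1307 CPM with it. The ratios to the endothelial sum that follow include Kdr. The 6 arterial endothelial markers summed to 249 to 285 CPM in PBS-injected mice and 202 to 224 CPM in tumor-bearing mice, and Nrp1 was the gene called (log2 fold change -0.43). The sum was mostly Nrp1, and the other 5 markers summed to 44.6 ± 9.88 CPM in PBS-injected and 43.7 ± 3.56 CPM in tumor-bearing mice (SD, n = 4), with overlap. The 10 mural markers summed to 1494 to 1692 CPM and 1357 to 1409 CPM, and Mcam was the gene called (-0.43). Without Rgs5, the marker with the highest CPM, the mural sums overlapped, at 839 to 975 CPM and 739 to 847 CPM. With each mouse left out in turn, Kdr and Nrp1 were called in 8 of 8 edgeR fits, Emcn in 5, Mcam in 4 and Flt1 in 3. No marker of these 3 lists was at 0, and their part in the lower Heyl level was not tested beyond the ratios that follow.

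Relative to the summed pan-endothelial markers, Heyl had 29.1, 23.9, 27.4 and 26.8 CPM per 1000 marker CPM in PBS-injected mice. In tumor-bearing mice it had 23.4, 22.2, 21.1 and 24.4. The groups overlapped by PBS 1-3 and LLC1 2-2, and the difference of the mean log2 ratio was -0.23 (exact permutation test, 2-sided, p = 0.0571, adjusted p = 0.248 over 13 ratios). Against the summed mural markers it was -0.27 (exact permutation test, p = 0.0857, adjusted p = 0.279). Jag2 was higher relative to the endothelial sum in every tumor-bearing mouse, at 34.2 ± 0.998 against 28.6 ± 1.29 CPM per 1000 marker CPM (SD, n = 4; exact permutation test, p = 0.0286), but the adjusted p of 0.248 did not pass. The unadjusted p was the smallest that this test allows, so after adjustment over 13 ratios even a separated ratio could hardly pass. The mean log2 ratio to the endothelial sum was higher in tumor-bearing mice by 0.13 for Notch1, 0.15 for Notch2, 0.11 for Notch3, 0.12 for Notch4 and 0.19 for Hey2. None of these passed (exact permutation tests, p = 0.0571 for Notch2, with an adjusted p of 0.248, and 0.314 to 0.400 for the others). For Jag1, Hes1 and Hey1 the mean log2 ratio to the endothelial sum differed by 0.00 between groups (exact permutation tests, p = 1.00 each). With 1 mouse left out these differences ranged from -0.024 to 0.031 for Jag1, -0.082 to 0.061 for Hes1 and -0.075 to 0.11 for Hey1. Relative to the mural sum the difference was 0.070 for Notch3 and -0.035 for Jag1 (exact permutation tests, p = 0.743 and 0.800). With 1 mouse left out it ranged from -0.040 to 0.19 for Notch3 and from -0.11 to 0.036 for Jag1.

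**Figure D5:**
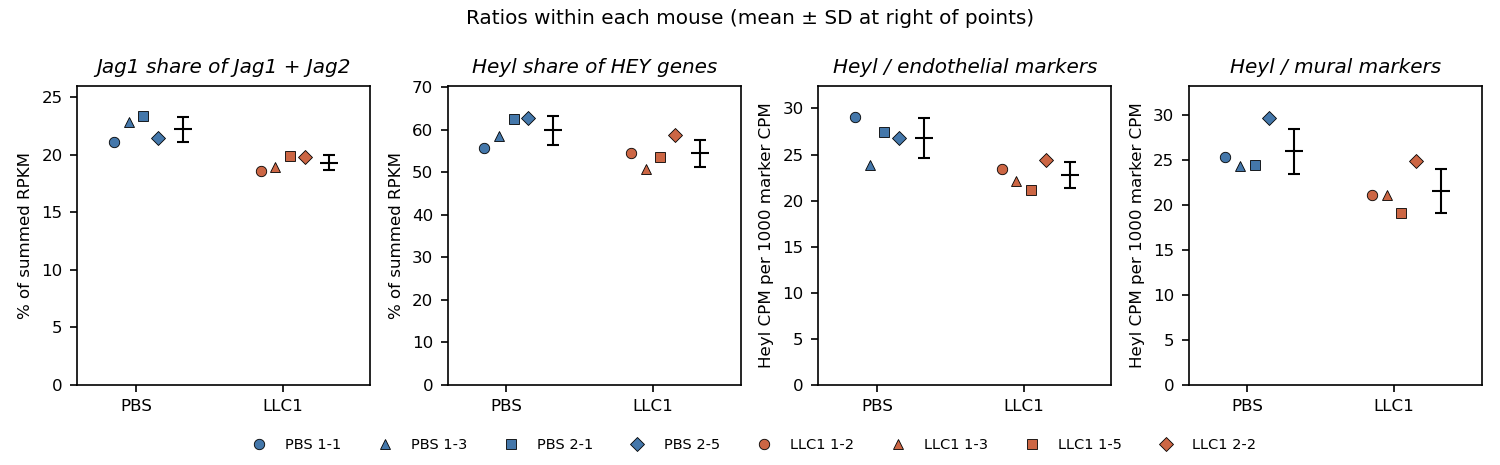
From left to right, the Jag1 share of summed Jagged RPKM, the Heyl share of summed HEY RPKM (both in percent), and Heyl CPM per 1000 CPM of summed endothelial and of summed mural markers, for each mouse with the mean ± SD at the right. The groups separate for the Jag1 share (18.6 to 19.8% against 21.1 to 23.4%) and overlap in the other 3 panels.

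Markers of other cell types were measured in the same way. Among 8 fibroblast markers Postn, Lum, Col1a2 and Col1a1 were lower. Their summed level, 2100 to 2492 CPM in PBS-injected and 2193 to 2575 CPM in tumor-bearing mice, was mostly Gsn, and without Gsn the sums were 828 to 1043 CPM and 757 to 835 CPM. Among 10 cardiomyocyte markers Myh6 was higher (log2 fold change 0.24), and 7 of the 10 had a point estimate above 0. The 10 markers summed to 99799 to 112732 CPM in PBS-injected and 109312 to 116668 CPM in tumor-bearing mice, with overlap. Without Ttn the sums were 91352 to 94250 CPM and 101419 to 107638 CPM, without overlap. Without any other single marker they overlapped. Among 6 leukocyte markers Ptprc and Cd14 were lower. The atrial (3 tested) and red blood cell (5 tested) lists had no called gene in the edgeR test, with 1 and 0 genes at an unadjusted p under 0.05. The 3 tested markers of dividing cells, Mki67, Top2a and Cdk1, were lower, and the list of 6 summed to 14.1 to 45.2 CPM in PBS-injected and 2.11 to 4.70 CPM in tumor-bearing mice. With each mouse left out in turn, Postn, Lum, Ptprc, Mki67, Top2a and Cdk1 were called in 8 of 8 edgeR fits, Col1a2 and Myh6 in 4, Cd14 in 2 and Col1a1 in 1.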

How the data were processed

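Messenger RNA of mouse ventricle was sequenced by the authors as 150-base paired-end reads and aligned to mm10. The submitters' processing notes list CASAVA, STAR and featureCounts. Annotation release and strand setting are not given in the sources used here. The values deposited are the authors' read counts for every gene and mouse, not normalized, beside a gene length. The groups, 4 LLC1 and 4 PBS mice, follow the stated treatment. Nothing links mice across groups.

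Genes were kept by filterByExpr, scaled with TMM and tested with edgeR 4.0.16 (quasi-likelihood F-test, all 8 mice, Benjamini-Hochberg over 16111 genes) in R 4.3.3. CPM and RPKM were computed from the counts, RPKM with the deposited length. Shares and marker ratios were compared with exact 2-sided permutation tests over 70 arrangements. Exon overlaps used GENCODE M21. The fit was tested on simulated data.

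The 10 members and all lists were chosen with earlier results of these data known. Named genes are the members, list genes with an FDR under 0.05 (markers up to 4 per list), the gene of highest mean CPM in each pathway role, and the 3 genes of at least 5 CPM most like a called member. Dll4, Gsn, Rgs5, Ttn, Rbpj, Poglut1, Adam17, Helt and the untested genes were named after their values were seen. Adgre1, listed under an older symbol, was matched by gene ID.

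Alternatives were DESeq2 1.42.0, RLE and upper-quartile factors, total counts only, other filters, robust empirical Bayes, limma-voom (limma 3.58.1), the likelihood ratio test, a covariate from the leading digit of the replicate code, shares from CPM, geometric means of markers, and each mouse left out. Shares with GENCODE lengths and marker sums without each gene were added after seeing the data.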

Additional observations from a re-analysis of the deposited data

Results flagged for a closer look

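Among 64 groups of 4 mice that were examined, 4 held a mouse far from the other 3 by Dixon's ratio (gap over range, at its 95% limit), where chance gives about 1 in 20. Nrarp had 4.50 CPM in LLC1 1-2 and 6.39 to 6.74 CPM in the other tumor-bearing mice (ratio 0.842), and without LLC1 1-2 its log2 fold change was -0.55 (edgeR FDR = 0.0401). The summed arterial endothelial markers were 249 CPM in PBS 1-1 and 282 to 285 CPM in the other PBS-injected mice (ratio 0.929), a sum that is mostly Nrp1. The summed cardiomyocyte markers were 112732 CPM in PBS 1-1 and 99799 to 101063 CPM in the others (ratio 0.902). This gap was mostly Ttn, at 18482 CPM in PBS 1-1, and without Ttn the sums were 94250 CPM and 91352 to 92756 CPM. The summed mural markers were 1692 CPM in PBS 2-1 and 1494 to 1526 CPM in the others (ratio 0.839). No member itself was flagged.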

How the results depend on the processing

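The lower level of Heyl kept its direction in all 18 alternative fits and its FDR stayed under 0.05 in the 10 with all mice (log2 fold change -0.49 to -0.37, edgeR, limma and DESeq2 FDR 0.00162 to 0.0278). With 1 mouse left out the number of lower members was between 0 and 1, and no member was called higher in any fit. No paired analysis was possible because the groups share only replicate code 1-3, carried by different animals. Signs of members that did not pass turned in some fits. Jag2 was at -0.011 with total-count scaling and between -0.011 and 0.13 with a mouse left out, and Hey2 at 0.0068 with all genes of at least 1 count and between -0.067 and 0.074 with a mouse left out. Over the fits without a mouse, Notch1 ranged from -0.18 to 0.075, Notch2 from -0.094 to 0.0045, Notch3 from -0.21 to 0.0059 and Notch4 from -0.22 to 0.067. Hes1 kept its sign, from -0.31 to -0.14 in those fits and at -0.12 with the leading digit of the replicate code as covariate. With that covariate Notch1 was at -0.043, Notch2 at -0.022, Notch3 at -0.011 and Notch4 at -0.033, and the median of the 10 members was -0.042. Relative to the geometric mean of the endothelial markers, Jag1 was at -0.033 and Hey1 at -0.031. Higher pathway genes numbered 0 with total-count scaling and 4 with that covariate, and 0 to 3 with a mouse left out. Lower pathway genes numbered 5 with the likelihood ratio test, and 2 to 6 with a mouse left out. Over all genes, 663 were higher and 743 lower, and with total-count scaling 225 and 793, while leaving out a mouse gave 212 to 908 higher and 330 to 1041 lower. The cause was not tested. The member with the fewest counts, Hey2, had 77 to 108 counts in a mouse, and changes within its interval of 0.804- to 1.23-fold were not excluded. The smallest change of Hey2 that would have passed at this depth and spread was not tested.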
